A study of Populus tremula x Populus alba with 2 samples.

Results

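MYB proteins of the R2R3 type sit in the middle of the regulatory cascade that builds wood. In Arabidopsis, MYB46 and MYB83 are switched on by NAC master regulators and in turn activate genes for cellulose, xylan and lignin, the polymers of the thickened secondary wall. MYB103 acts beside them in Arabidopsis and is needed for full expression of ferulate 5-hydroxylase, the entry step to syringyl lignin. MYB4-type proteins work in the opposite direction and repress phenylpropanoid and lignin genes, LTF1 being a poplar member of this type.

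The 8 genes described here are the poplar homologues of these regulators and were taken from the deposited table by their identifiers, 8 of 41335 poplar gene rows. The activators were 6 genes, namely MYB2 (Potri.001G258700), MYB21 (Potri.009G053900), MYB3 (Potri.001G267300) and MYB20 (Potri.009G061500) as MYB46/MYB83 homologues, and MYB10 (Potri.001G099800) and MYB128 (Potri.003G132000) as MYB103 homologues. The repressors were 2 genes, LTF1 (Potri.004G174400) and its duplicate (Potri.009G134000). The genes form 4 duplicate pairs, MYB2 with MYB21, MYB3 with MYB20, MYB10 with MYB128, and LTF1 with its duplicate. The table pairs identifiers with no names, so names and roles come from the member list and were not checked against sequence or annotation here.

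The lines compared were of hybrid aspen (Populus tremula x Populus alba), a line named MOMT4-0 and a wild-type control. MOMT4-0 carries an engineered monolignol 4-O-methyltransferase, which methylates lignin precursors, under the bean PAL2 promoter, a promoter of a phenylpropanoid gene. Both groups were greenhouse trees of 2 months, and RNA came from about 100 mg of debarked stem, internodes 1 to 15 from the top, pooled from 2 to 3 plants. Each line gave 1 library, so there is no replicate error, no test of the lines was possible, and MOMT4-0 is a single transgenic line. These internodes differ in age and hold several cell types, and the table offered no named markers with which the tissue could be checked. In such bulk RNA, fewer cells of a type and less RNA per cell cannot be told apart.

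Levels are in RPKM, by the paper's account reads normalized to exon length and to the mapped reads of the library. Being scaled to length, levels of different genes can be set side by side. Reads of hybrid aspen were, however, aligned to the P. trichocarpa genome with 1 mismatch allowed. The share of reads lost may differ between genes, which was not tested and bears on every comparison between genes below. The table heads its columns MOMT4 and WT, and these headings were followed, although the sample descriptions give the short codes of the columns the other way round. The row named outside the poplar series, which was read as the transgene, stood at 1221.8 RPKM in MOMT4-0 and 4.79 RPKM in the control. The spacing of the RPKM values places the scaling totals near 9464000 reads for MOMT4-0 and 8754000 reads for the control. Genes averaging 1 RPKM or more over the libraries were kept, and over these 22944 poplar genes the median log2 ratio of MOMT4-0 over control was -0.0057 and the central 95% lay between -0.63 and 0.71. These ratios, and those of the 8 genes, were formed after adding 1 RPKM to each value, which shrinks the differences of low genes. All 8 genes passed this filter.

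The MYB46/MYB83 homologues were expressed at low to middling levels, and MYB21 stood far above the other members of its group. MYB21 had 10.7 RPKM in MOMT4-0 and 11.3 RPKM in the control, close to the median gene, which had 11.0 RPKM in MOMT4-0 and 11.2 RPKM in the control. MYB2, the duplicate of MYB21, had 3.43 RPKM in MOMT4-0 and 4.69 RPKM in the control. MYB3 had 2.68 RPKM in MOMT4-0 and 2.79 RPKM in the control. MYB20, the lowest of the 8 genes in both libraries, had 2.00 RPKM in MOMT4-0 and 2.43 RPKM in the control. All 4 values were thus lower in MOMT4-0, by amounts of the order of counting error, with log2 ratios from -0.36 for MYB2 to -0.04 for MYB3 and a group median of -0.13.

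The MYB103 homologues were more abundant and differed in opposite directions. MYB128 had 39.7 RPKM in MOMT4-0 and 34.7 RPKM in the control, and was above 84.1% and 81.5% of the genes past the filter, respectively. MYB10 had 14.5 RPKM in MOMT4-0 and 16.4 RPKM in the control. MYB128 was therefore the higher value in MOMT4-0, with a log2 ratio of 0.19, and MYB10 the lower one, with a log2 ratio of -0.16.

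Both MYB4-type repressors had higher values in MOMT4-0, the difference of the duplicate lying within counting error. LTF1 was the most abundant of the 8 genes in either library, with 59.4 RPKM in MOMT4-0 and 42.8 RPKM in the control. The LTF1 duplicate had 20.7 RPKM in MOMT4-0 and 18.7 RPKM in the control. LTF1 had the largest difference among the 8 genes, 16.6 RPKM or a 1.39-fold higher level, and its log2 ratio was 0.46 against 0.14 for its duplicate. By level, LTF1 stood at rank 2290 of the poplar genes in MOMT4-0 and at rank 3365 in the control.

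**Figure D1:**
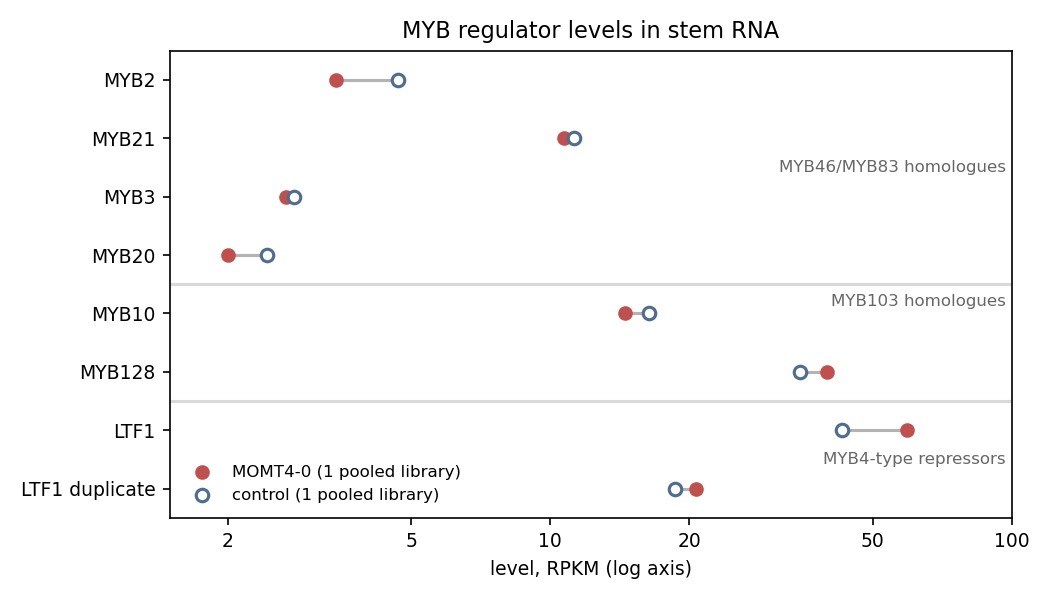
Level of each MYB gene in RPKM on a log axis, with a filled point for the MOMT4-0 library and an open point for the control library, 1 pooled library each. The 4 MYB46/MYB83 homologues and MYB10 lie lower in MOMT4-0, whereas MYB128, LTF1 and the LTF1 duplicate lie higher, LTF1 by 16.6 RPKM.

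The order of levels was LTF1, MYB128, LTF1 duplicate, MYB10, MYB21, MYB2, MYB3 and MYB20, the same in both libraries. Neighbours at the foot of this order were not in every case separated beyond counting error. MYB3 exceeded MYB20 by 0.42 on the log2 scale in MOMT4-0 and by 0.20 in the control, and even the narrowest counting intervals, of 0.57 and 0.55 to either side (Poisson counts on the log scale, from the most reads each gene's span allows), held 0. MYB2 exceeded MYB3 by 0.36 in MOMT4-0, within the interval of 0.48, and by 0.75 in the control, beyond the interval of 0.46. In the middle of the order, the LTF1 duplicate exceeded MYB10 by 0.51 in MOMT4-0, beyond the interval of 0.22, and by 0.19 in the control, within the interval of 0.23. The other 4 steps were wider than their narrowest intervals in both libraries, among them LTF1 over MYB128 by 0.58 in MOMT4-0 and 0.30 in the control. Intervals at the true exon lengths would be wider than these.

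None of the 8 genes differed 2-fold between the libraries, nor did any differ 1.5-fold. Among all 22944 genes past the filter, 1.77% were at least 2-fold apart and 7.07% at least 1.5-fold apart, so 0 of 8 lies near the background and is not a result about these genes. The median log2 ratio over the 8 genes was -0.06, with 3 genes higher and 5 lower in MOMT4-0, beside 49.1% of all genes past the filter that were higher.

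The spread of log2 ratios narrows as levels rise, and the 8 genes were therefore set beside genes of like level. Of the 6342 genes with a mean of 1 to 5 RPKM, the central 95% lay between -0.83 and 1.00, and MYB2, MYB3 and MYB20 fell well inside. MYB21, MYB10 and the LTF1 duplicate, with means of 5 to 20 RPKM, lay inside the range of -0.56 to 0.61 found for 9304 genes. MYB128 and LTF1, with means of 20 to 100 RPKM, lay inside the range of -0.44 to 0.50 found for 6119 genes. All 8 genes thus lay within the central 95% of their level, LTF1 nearest to its edge. Its ratio was reached or passed in either direction by 5.15% of the genes of its level, against 33.7% for MYB128 and 33.1% for MYB2 in theirs.

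**Figure D2:**
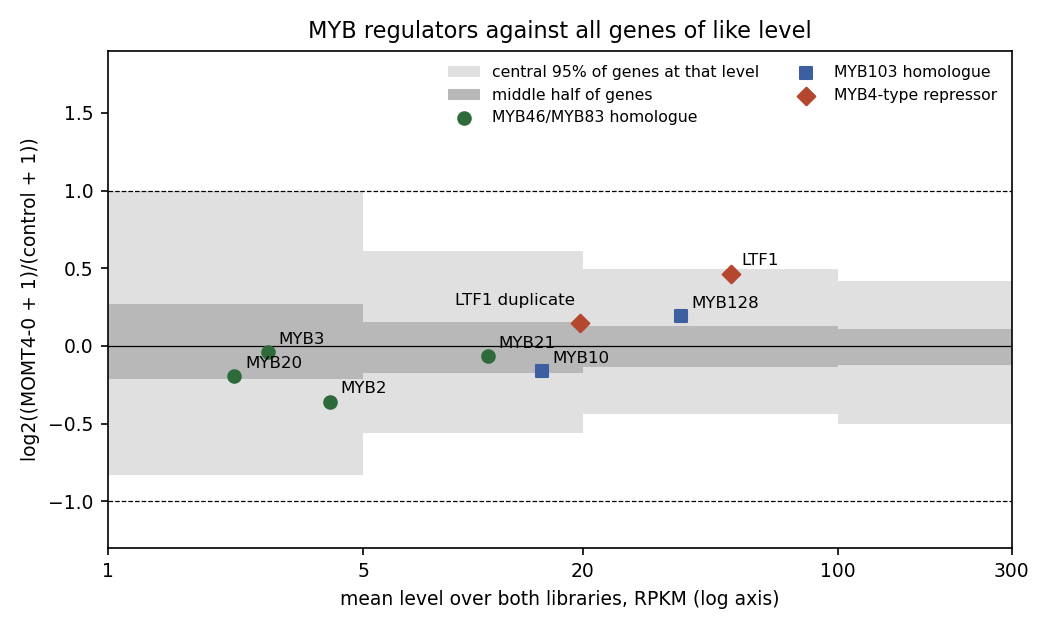
Log2 ratio of MOMT4-0 over control, with 1 RPKM added to each value, against the mean RPKM of both libraries on a log axis. Light and dark grey bands give the central 95% and the middle 50% of all genes in ranges of 1 to 5, 5 to 20, 20 to 100 and above 100 RPKM, and dashed lines mark 2-fold. All 8 points lie inside the light band, and LTF1 at 0.46 lies nearest to its edge at 0.50.

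How many reads stood behind each value decides how much of these differences counting alone could give. Exon lengths are not in the table, so the full span of each gene was used as an upper limit on its counted length. This gives a ceiling on the reads, and the interval at that ceiling is called the narrowest. The true ceiling may be lower, since the rows behind the scaling totals fitted their span less 215 bases. By the full-span limit, LTF1 rested on at most 987 reads in MOMT4-0 and 657 reads in the control, and MYB20 on at most 41 and 46 reads. These exact Clopper-Pearson intervals (95%) cover counting error only and say nothing of differences between plants or pools.

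For 5 of the 8 genes, MYB21, MYB3, MYB20, MYB10 and the LTF1 duplicate, even the narrowest interval of the RPKM ratio held 1, so no difference was detectable at this depth. The share of all genes past the filter whose interval held 1 was not computed, so this count is not a result about the 8 genes. The interval of MYB20 ran from 0.528 to 1.28 around a ratio of 0.822. That of MYB21 ran from 0.798 to 1.13 around a ratio of 0.950. The better covered MYB10 had a ratio of 0.887 with an interval of 0.756 to 1.04, and the LTF1 duplicate a ratio of 1.11 with an interval of 0.953 to 1.30.

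At the full span the intervals of the other 3 genes left out 1, but not equally firmly. For LTF1 the narrowest interval was 1.26 to 1.54, and the interval left out 1 whenever at least 176 of the 1756 bases of its span were counted. With 878 counted bases its interval was 1.21 to 1.60. For MYB128, with a ratio of 1.15, the narrowest interval was 1.04 to 1.26, and at least 1297 of its 2403 bases had to be counted for it to leave out 1. For MYB2, with a ratio of 0.732, the narrowest interval was 0.539 to 0.992. It left out 1 only with at least 2450 of 2474 bases counted, nearly the whole span with its introns. The rows behind the scaling totals fitted their span less 215 bases, and such a length of MYB2 would fall short of 2450. The difference in LTF1 was thus larger than counting error over nearly every possible length, that of MYB128 only over longer ones, and that of MYB2 was not detectable at any shorter length.

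The exact ratio of the RPKM values reveals small whole numbers of reads for 3 of the lower genes. The values of MYB20 stood as 8 reads in MOMT4-0 to 9 in the control, those of MYB3 as 27 to 26 and those of MYB21 as 38 to 37. Each may also be a multiple of its pair. The full-span limit allows multiples up to 40 and 45, 54 and 52, and 266 and 259 reads, and a shorter counted length may allow fewer. MYB3 and MYB21 thus had slightly more reads in MOMT4-0 and yet lower RPKM there, because a read counted for 1.08 times more RPKM in the control library. For the other 5 genes no pair met the limit set for such matches.

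Set against each other, the summed activators were nearly level between the lines while the summed repressors were higher in MOMT4-0. The 6 activators summed to 73.1 RPKM in MOMT4-0 and 72.2 RPKM in the control. The 2 repressors summed to 80.2 RPKM in MOMT4-0 and 61.4 RPKM in the control, a 1.30-fold higher sum, and LTF1 gave 16.6 RPKM of the 18.7 RPKM between them. Activator RPKM over repressor RPKM was 0.912 in MOMT4-0 and 1.18 in the control. In RPKM the repressors thus exceeded the activators in MOMT4-0, and the activators exceeded the repressors in the control. Which sum is the higher one depends on different genes losing like shares of reads in the alignment, which was not tested. No counting interval was computed for the ratio within a library. On the log2 scale the activator to repressor ratio differed by -0.37 (narrowest counting interval -0.52 to -0.21, Poisson counts on the log scale). The difference turned on LTF1. With LTF1 as the only repressor it was -0.46, and with the duplicate as the only repressor it was -0.14 with a narrowest interval of -0.38 to 0.11, which holds 0; both of these were computed after the values were seen.

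MYB128 made up a larger share of the activator sum in MOMT4-0. In MOMT4-0 MYB128 gave 54.4% of the activator RPKM and in the control 48.0%. The 4 MYB46/MYB83 homologues together summed to 18.8 RPKM in MOMT4-0 and 21.2 RPKM in the control, which is 25.7% and 29.3% of the activator RPKM. Their sum over that of the repressors was 0.235 in MOMT4-0 and 0.345 in the control, a log2 difference of -0.55 (narrowest counting interval -0.78 to -0.33). For the MYB103 homologues the values were 0.677 and 0.831, a log2 difference of -0.30 (narrowest counting interval -0.46 to -0.13). The groups share the repressor values, so the overlap of these intervals does not compare the groups with each other. Without the repressors, the log2 ratio of the sums was -0.17 for the MYB46/MYB83 homologues and 0.09 for the MYB103 homologues. A counting interval for the difference between these groups was not computed. MYB2 and MYB21 made up most of the MYB46/MYB83 sum in both libraries.

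**Figure D3:**
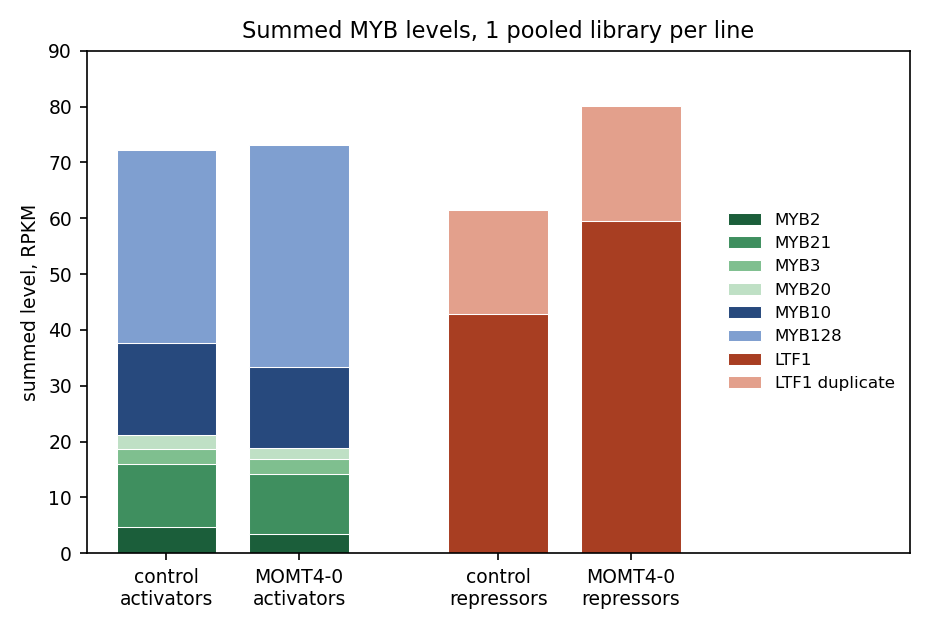
Summed RPKM of the 6 activators and of the 2 repressors in the control and MOMT4-0 libraries, 1 pooled library each, with each gene as 1 segment and the axis starting at 0. The activator bars reach 72.2 and 73.1 RPKM, and the repressor bars reach 61.4 and 80.2 RPKM, with most of the gap in the LTF1 segment.

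Within the duplicate pairs, 1 copy dominated in 3 of the 4. LTF1 stood 2.87-fold above its duplicate in MOMT4-0 and 2.29-fold above it in the control. MYB128 stood 2.73-fold above MYB10 in MOMT4-0 and 2.12-fold above it in the control. MYB21 stood 3.12-fold above MYB2 in MOMT4-0 and 2.40-fold above it in the control. Only MYB3 and MYB20 were near each other, 1.34-fold apart in MOMT4-0 and 1.15-fold apart in the control.

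In each of the 4 pairs the same copy was the higher one in both libraries, and the gap was wider in MOMT4-0. The widening was 0.32 on the log2 scale for LTF1 over its duplicate, with a narrowest counting interval of 0.26 to either side, and 0.37 for MYB128 over MYB10, with an interval of 0.27. If only 0.5 of each span was counted, these intervals were 0.37 and 0.38 and both held 0, so neither widening was firmly detectable. For MYB21 over MYB2 it was 0.38 with an interval of 0.49, and for MYB3 over MYB20 it was 0.22 with an interval of 0.79, and even the narrowest intervals of these pairs held 0. Copies of a pair can share sequence, and how reads that fit both copies were counted is not given in the sources used here, so the division of reads within a pair is uncertain.

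**Figure D4:**
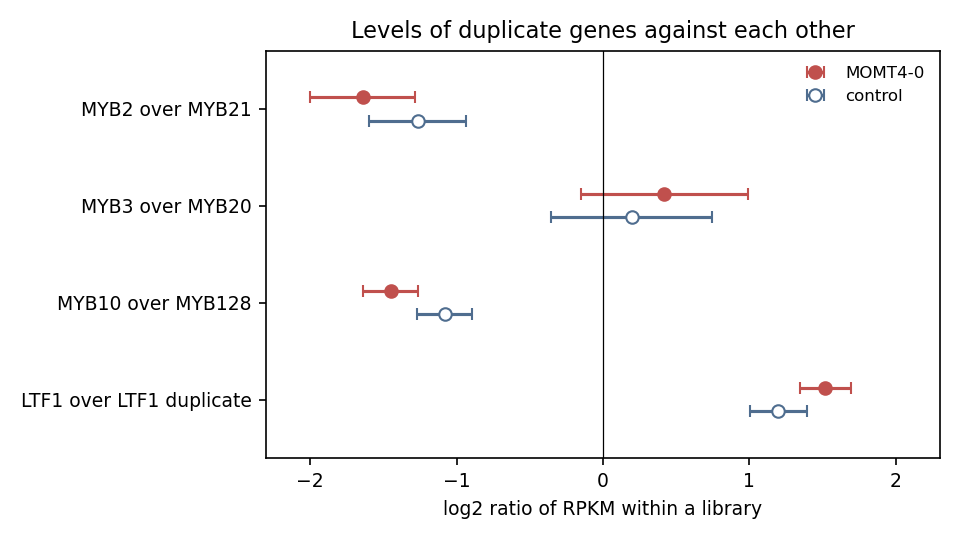
Log2 ratio of RPKM of the first over the second copy of each duplicate pair, within the MOMT4-0 library (filled) and the control library (open). Bars are the narrowest 95% counting intervals, from the largest number of reads each span allows, and only those of MYB3 over MYB20 cross 0.

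The genes lie on 4 chromosomes, given here 1-based after the table's own 0-based starts (the sources used here name no genome build). On chromosome 1 lie MYB10 at 7899208 to 7901430, MYB2 at 26778319 to 26780792 and MYB3 at 27516421 to 27518932. Chromosome 9 holds MYB21 at 5767670 to 5770326, MYB20 at 6340254 to 6342421 and the LTF1 duplicate at 10828633 to 10830516. MYB128 lies on chromosome 3 at 15142928 to 15145330, and LTF1 on chromosome 4 at 19281610 to 19283365. The order of MYB2 and MYB3 on chromosome 1 is thus mirrored by that of their duplicates MYB21 and MYB20 on chromosome 9, and these lie 736 kb and 570 kb apart.

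No gene of the 8 overlapped another row of the table. Of the 16 rows directly flanking them, 2 were listed at 0 in both libraries and 13 averaged 1 RPKM or more, with log2 ratios from -0.41 to 0.46. None of the 13 was at least 1.5-fold apart, near the background of 7.07% of all genes past the filter. Beside LTF1, the next row, Potri.004G174500, had 59.7 RPKM in MOMT4-0 and 49.3 RPKM in the control, a log2 ratio of 0.27 in the same direction as LTF1. The row before LTF1, Potri.004G174300, was listed at 0 in both. Closest to any of the 8 genes was Potri.009G061400, which ends 184 bases before MYB20 and had 3.46 RPKM in MOMT4-0 and 2.24 RPKM in the control, opposite in direction to MYB20. The library was strand-specific, but whether strand was used in counting is not given in the sources used here.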

How the data were processed

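Stem RNA of 1 MOMT4-0 pool and 1 control pool was sequenced. The authors aligned reads with TopHat (1 mismatch) to the P. trichocarpa genome from PlantGDB, and the deposited RPKM values are their read counts per gene normalized to exon length and mapped reads. Bowtie is also named in the submitters' processing notes, with versions and genome build not given in the sources used here. The table's Cuffdiff fold changes, p and q values were not used, and 2 rows marked as failed were left out.

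From the RPKM values, log2 ratios were computed with a pseudocount of 1. Scaling totals were read from rows with up to 60 reads, of which 513 of 6472 fell on 1 line of span less 215 bases, and whether these equal the library totals was not tested. Pairs of reads were accepted within a tolerance of 1.2e-05 and under 0.05 pairs foreseen by chance. The scaling totals, the bases taken off the span, the read pairs and the recovery of large planted changes were checked on simulated data. The counting intervals were not checked in this way. With 1 library per line, no p-value was computed.

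The 8 genes, their grouping and the settings were chosen with earlier results of these data known. All 8 are named, with flanking rows. Lists of lignin, cellulose synthase, NAC and other MYB genes, markers, promoters and proteins were not analysed here, since the identifiers carry no annotation or sequence. Alternatives were a pseudocount of 0.1, median centring, scaling to a common sum, other filters and fold limits, and other activator or repressor sums. Software was SciPy 1.17.1, NumPy 2.4.6, pandas 2.3.3 and matplotlib 3.10.9 under Python 3.11.15.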

Additional observations from a re-analysis of the deposited data

How the results depend on the processing

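The log2 ratios of the 8 genes kept their direction, with 3 higher and 5 lower, with a pseudocount of 0.1, after centring on the median of all genes and after scaling both libraries to a common sum, and none reached 2-fold under these settings, without an expression filter or among the 5 genes averaging 5 RPKM or more. Each moved by less than its narrowest counting interval, and the median over the 8 genes ranged from -0.06 to -0.04. The activator to repressor ratio stayed lower in MOMT4-0 under every alternative sum. Its log2 difference of -0.37 moved by more than its counting interval with the 4 MYB46/MYB83 homologues alone (-0.55) and, in an alternative chosen after seeing the data, with the LTF1 duplicate alone as repressor (-0.14); the second is nearer to 0 because LTF1, the gene with the largest ratio, is left out. As a difference of mean log2 levels it was -0.41. No paired analysis was possible because each line has 1 library. Depth limits MYB2, MYB3 and MYB20, the genes with the fewest reads, and the absence of replicates limits all 8 genes.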

Other observations

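Between MYB2 and MYB3 on chromosome 1 lie 85 other rows, of which 39 passed the expression filter, and between their duplicates MYB21 and MYB20 on chromosome 9 lie 75, of which 49 passed. The median log2 ratio of MOMT4-0 over control was 0.04 in the first stretch and 0.03 in the second, with ranges of -0.87 to 0.89 and -0.52 to 0.57, and 0 genes of either stretch were at least 2-fold apart, near the background of 1.77% of all genes past the filter.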
